A study of Mus musculus with 6 samples.

Results

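The genes described here make cholesterol in the liver, sense how much of it is present, store it as ester and pass it to lipoproteins. The list named 34 genes, chosen by gene symbol and role. Of these, 29 had a probe set that named no other gene, out of 20242 genes measured in all. The livers came from 3 Cpt2KO mice, which carry floxed Cpt2 alleles and a Cre recombinase under the albumin promoter (Albumin-Cre; Cpt2f/f), and from 3 WT mice, which carry the same floxed alleles without Cre (Cpt2f/f). The albumin promoter is active in hepatocytes, and whether other liver cells kept an intact gene was not measured here. All 6 mice were male, on the C57BL/6 background, and had been fasted for 24 hours before the liver was taken. Each mouse gave 1 array of total liver RNA. The labels list 12, 13 and 14 weeks of age for Cpt2KO replicates 1 to 3 and 9, 10 and 11 weeks for WT replicates 1 to 3, while the growth protocol gives 9 weeks for all mice, so listed age and genotype cannot be told apart by comparing the groups.

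Cholesterol is built from acetyl-CoA. The early steps make mevalonate and then the isoprenoid diphosphates, which also feed ubiquinone, dolichol and protein prenylation, and the late steps make squalene, close it to lanosterol and trim lanosterol to cholesterol. The transcription factor SREBP2, the product of Srebf2, drives nearly all of these enzymes: the escort protein SCAP carries it out of the endoplasmic reticulum when sterols are scarce, and the INSIG proteins hold the SCAP complex back when sterols are plentiful. The liver X receptors do the opposite work, switching on export of sterol when oxysterols accumulate. In fasting, hepatic sterol synthesis is normally low, and the liver disposes of cholesterol as bile acids, as biliary cholesterol and in lipoproteins.

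Promoter sequence is shown for 4 members to set the enzymes that fell beside the classical SREBP target Hmgcs1, which did not pass the test, and beside Insig2, which rose. Each window runs from 250 bases before to 50 bases after an annotated start, on the strand of the gene, from RefSeq on GRCm38.p6. Capitals mark matches on either strand to the sterol regulatory element letters TCACNCCAC or to CCAAT, the box bound by NF-Y, a factor that acts together with SREBP at many sterol genes. The windows are chr13:119690101-119690400 (plus strand) for Hmgcs1, chr8:64733529-64733828 (minus strand) for Msmo1, chrX:8193463-8193762 (minus strand) for Ebp and chr1:121332540-121332839 (minus strand), the one farthest upstream of 3 annotated windows, for Insig2.
Hmgcs1: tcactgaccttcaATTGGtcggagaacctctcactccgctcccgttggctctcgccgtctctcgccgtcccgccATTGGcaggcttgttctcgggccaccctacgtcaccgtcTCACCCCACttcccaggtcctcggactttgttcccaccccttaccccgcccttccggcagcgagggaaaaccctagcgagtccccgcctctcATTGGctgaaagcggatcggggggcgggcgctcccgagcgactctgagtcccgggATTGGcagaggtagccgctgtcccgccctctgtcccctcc
Msmo1: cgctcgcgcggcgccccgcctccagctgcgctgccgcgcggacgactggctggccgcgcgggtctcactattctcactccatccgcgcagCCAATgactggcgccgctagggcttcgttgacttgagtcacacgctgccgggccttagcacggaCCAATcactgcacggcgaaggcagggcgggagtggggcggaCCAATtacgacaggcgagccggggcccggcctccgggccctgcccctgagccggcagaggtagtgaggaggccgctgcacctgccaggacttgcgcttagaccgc
Ebp: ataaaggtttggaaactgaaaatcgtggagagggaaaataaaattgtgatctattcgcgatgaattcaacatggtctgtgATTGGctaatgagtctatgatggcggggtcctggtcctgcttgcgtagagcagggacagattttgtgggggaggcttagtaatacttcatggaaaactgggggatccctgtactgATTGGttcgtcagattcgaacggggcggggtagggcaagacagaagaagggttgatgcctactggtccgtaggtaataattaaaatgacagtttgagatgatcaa
Insig2: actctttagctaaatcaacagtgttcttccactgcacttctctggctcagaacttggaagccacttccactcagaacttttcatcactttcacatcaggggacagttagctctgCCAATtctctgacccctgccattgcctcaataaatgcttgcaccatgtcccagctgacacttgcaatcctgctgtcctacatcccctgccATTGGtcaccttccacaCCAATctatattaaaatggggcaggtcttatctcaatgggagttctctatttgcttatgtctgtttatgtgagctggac

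Of the 24 measured members with a promoter window, 21 held at least 1 CCAAT (87.5%), against 41.1% of 27025 genes with a window and 37.4% of all 32851 windows. All 3 members that rose and had a window and all 3 that fell and had one held it, as did 15 of the 18 that did not pass. Since nearly all members held the box and few were called, these counts cannot tell whether its presence goes with direction. Fdft1 and Scarb1, which also fell, had no window. The sterol regulatory element letters were found in 1 member, Hmgcs1, at positions -137 to -129 relative to the start, and in 1.24% of all windows. The box stood 4 times in the Hmgcs1 window, 3 times in that of Msmo1 and 2 times in that of Ebp. Insig2 held 3 in the window shown and 0 in the other two windows. A repeat of AGGTCA spaced by 4 bases, the form of a liver X receptor element, was found in 0 of the 24 members and in 5 windows of the genome. These are matches of letters, and forms of these elements that differ from the letters searched were not counted.

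Cpt2, which encodes the inner-membrane carnitine palmitoyltransferase needed for mitochondrial oxidation of long-chain fatty acids, had log2 RMA values of 6.48, 6.73 and 6.75 in Cpt2KO livers, against 7.56, 7.72 and 7.63 in WT livers. RMA values are background-corrected, between-array normalized probe summaries, and 1 unit is a doubling of signal. The groups did not overlap, and the log2 fold change was -0.99 (SE 0.11, adjusted p = 0.0013 by limma). The albumin gene Alb, a defining hepatocyte product, ran from 11.23 to 11.57 in Cpt2KO livers and from 11.94 to 12.11 in WT livers. Across all genes, arrays correlated at r = 0.985 to 0.987 within Cpt2KO, 0.988 to 0.989 within WT and 0.969 to 0.977 between the genotypes.

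Among the 29 measured members, 3 rose in Cpt2KO livers and 5 fell, while 21 stayed above an adjusted p of 0.05. The members called made up 27.6%, where the same test called 8.24% of all genes, 4.74% as higher and 3.49% as lower. That share over all genes counts dim genes, where RMA understates differences, while all measured members but Npc1l1 lay above the median level. With only genes above the median level, which leaves fewer genes to adjust over, 3 members were higher and 7 lower, and 2013 genes were called in all. The genotypes did not overlap in 16 members (55.2%), against 25.1% of all genes. In whole liver, a change in the number of cells of a type and a change in RNA per cell cannot be told apart. Those that rose were Insig2, Nceh1 and Hsd17b7, and those that fell were Ebp, Msmo1, Scarb1, Fdft1 and Sc5d. The median log2 fold change of the members was -0.15, against -0.01 over all genes, and 21 of the 29 differences were below 0. The median size of a difference, whatever its sign, was 0.36 among members and 0.12 over all genes, dim genes included. By limma, 0 of the 8 calls held with listed age as a covariate, or with all 115050 probe sets fitted and adjusted together. The count called over all genes fell as well, from 1667 to 83 with listed age and to 189 with all probe sets. Each of the 8 differences kept its direction. In these settings Ebp had adjusted p of 0.227 and 0.0923, and Insig2 of 0.0737 and 0.164. The remaining 5 listed genes were not analysed here: Tm7sf2 shared its probe set with another gene, and Acat2, Nr1h2, Soat1 and Soat2 had no probe set naming them in the annotation used.

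**Figure D1:**
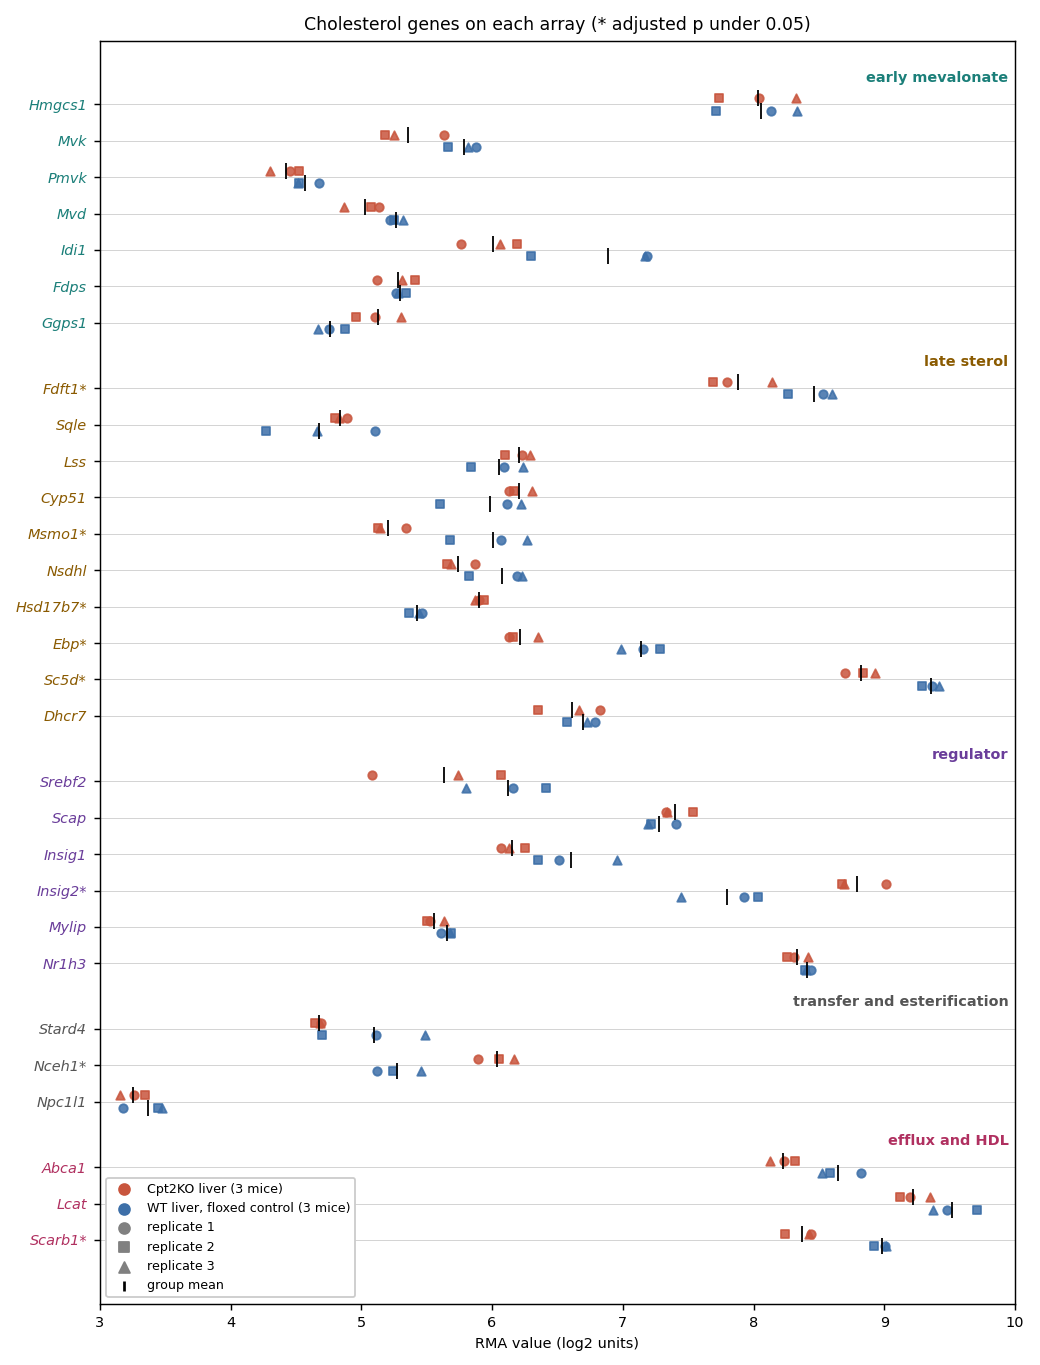
Log2 RMA value (x axis) of each of the 29 measured genes (rows, grouped by role) on each array, with the 3 Cpt2KO mice in red above the 3 WT mice in blue, marker shapes for replicate numbers and black ticks for group means. Ebp, Msmo1 and Scarb1 lie lower in all Cpt2KO livers and Insig2, Nceh1 and Hsd17b7 higher, while the WT replicate 2 square lies at the low end of the WT values for most synthesis enzymes.

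No early enzyme passed the test, out of 7 measured, while 3 of them had an unadjusted p under 0.05. Over all genes, 2412 of 20242 had such a p without passing. The early enzymes had a median log2 fold change of -0.15, with a range from -0.88 to 0.36. Idi1, the isomerase that converts isopentenyl to dimethylallyl diphosphate, had the largest difference. Its values were 5.77, 6.19 and 6.06 in Cpt2KO livers, against 7.18, 6.30 and 7.17 in WT livers. All Cpt2KO values lay below all WT values, but WT replicate 2 came within 0.10 of the Cpt2KO range, and the log2 fold change of -0.88 (95% interval -1.43 to -0.33) had an adjusted p of 0.064 by limma. Without WT replicate 2 it was -1.17 with an adjusted p of 0.00571, and without any other array the adjusted p ran from 0.0984 to 0.183. A further Idi1 probe set differed by -0.68, also without overlap between the genotypes. The paralogue Idi2, whose RNA could bind some of the same probes, differed by -0.13 (adjusted p = 0.768 by limma).

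Mvk, the kinase that phosphorylates mevalonate, had 5.63, 5.18 and 5.25 in Cpt2KO livers, against 5.88, 5.66 and 5.82 in WT livers. The groups were separated by 0.03 log2 units, and the log2 fold change was -0.43 (adjusted p = 0.107 by limma), with an adjusted p of 0.0332 when Cpt2KO replicate 1 was left out and of 0.149 to 0.263 when any other array was. Mvd, the decarboxylase that makes isopentenyl diphosphate, had 5.14, 5.07 and 4.87 in Cpt2KO livers, against 5.22, 5.25 and 5.32 in WT livers. Again the groups did not overlap, by 0.08, with a log2 fold change of -0.24 (adjusted p = 0.26 by limma). Ggps1, which makes the geranylgeranyl diphosphate used to prenylate proteins and so lies on a side branch of the route to cholesterol, was the early member with a positive difference. It had 5.11, 4.96 and 5.31 in Cpt2KO livers, against 4.75, 4.87 and 4.67 in WT livers, with no overlap and a log2 fold change of 0.36 (adjusted p = 0.117 by limma).

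The other early enzymes lay close to 0. Hmgcs1, the synthase that condenses acetoacetyl-CoA and acetyl-CoA in the cytosol, had 8.04, 7.73 and 8.32 in Cpt2KO livers, against 8.13, 7.71 and 8.33 in WT livers. The mice of both genotypes spanned the same range, and the log2 fold change was -0.025 with a 95% interval from -0.47 to 0.42. An interval of this width does not show that the gene was alike in both genotypes. Fdps, the farnesyl diphosphate synthase, differed by -0.017 (95% interval -0.26 to 0.23) and Pmvk, the phosphomevalonate kinase, by -0.15 (-0.39 to 0.09). The further probe sets of Hmgcs1, Fdps and Pmvk differed by -0.016, by 0.12 and -0.033, and by -0.19.

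The late sterol enzymes held all 5 of the synthesis genes that passed. Of 10 measured, 4 fell and 1 rose, where 3.49% of all genes fell and 4.74% rose. The late enzymes had a median log2 fold change of -0.21 and a range from -0.93 to 0.48. Ebp, the isomerase that moves the sterol double bond from the C8 to the C7 position, fell most. Its values were 6.13, 6.16 and 6.35 in Cpt2KO livers, against 7.15, 7.28 and 6.99 in WT livers. The gap of 0.63 between the groups exceeded the range within either of them, and Ebp was 1.90-fold lower (log2 fold change -0.93, SE 0.11, adjusted p = 0.00218 by limma).

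Msmo1, the oxidase that starts the removal of the C4 methyl groups, had 5.34, 5.13 and 5.15 in Cpt2KO livers, against 6.07, 5.68 and 6.27 in WT livers. The groups did not overlap, and Msmo1 was 1.75-fold lower (log2 fold change -0.80, SE 0.16, adjusted p = 0.0158 by limma). Fdft1, the squalene synthase that commits farnesyl diphosphate to sterols, had 7.80, 7.69 and 8.14 in Cpt2KO livers, against 8.53, 8.26 and 8.60 in WT livers. Cpt2KO replicate 3 came within 0.12 of WT replicate 2, and Fdft1 stood at 66.5% of the WT level (log2 fold change -0.59, SE 0.15, adjusted p = 0.047 by limma). With values centred on array medians, Fdft1 did not pass (adjusted p = 0.0841 by limma). Its further probe set differed by -0.86, with overlap between the genotypes. Sc5d, the desaturase that makes the C5 double bond, had 8.70, 8.84 and 8.92 in Cpt2KO livers, against 9.36, 9.29 and 9.42 in WT livers. It was 1.45-fold lower without overlap (log2 fold change -0.54, SE 0.10, adjusted p = 0.0138 by limma). Each of the calls of Msmo1, Fdft1 and Sc5d was lost when any of several arrays was left out, while the differences stayed below 0. They ran from -0.72 to -0.49 in Fdft1, -0.97 to -0.67 in Msmo1 and -0.59 to -0.47 in Sc5d. Leaving out an array also lowered the count called over all genes, from 1667 to between 1036 and 1305. The adjusted p of Fdft1 was 0.13 and 0.133 without Cpt2KO replicate 1 or 2, and 0.133 and 0.15 without WT replicate 1 or 3. That of Msmo1 was 0.0585 and 0.0604 without Cpt2KO replicate 2 or 3, and 0.0563 and 0.0504 without WT replicate 1 or 3. That of Sc5d was 0.0519 without Cpt2KO replicate 1, and 0.0514 and 0.0633 without WT replicate 1 or 3. Ebp kept its call whichever array was removed, with adjusted p from 0.00547 to 0.0112.

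Hsd17b7 went the other way. It encodes the 3-keto reductase that works next to MSMO1 and NSDHL in C4 demethylation, and it had 5.90, 5.94 and 5.87 in Cpt2KO livers, against 5.46, 5.37 and 5.44 in WT livers. The values within each genotype lay within 0.1 of each other, and Hsd17b7 was 1.39-fold higher without overlap (log2 fold change 0.48, SE 0.09, adjusted p = 0.0132 by limma). The adjusted p was 0.0608 without WT replicate 2 and 0.0527 without WT replicate 3. Nsdhl, the dehydrogenase of the same demethylation complex, had a log2 fold change of -0.34 (95% interval -0.65 to -0.04, adjusted p = 0.19 by limma), with Cpt2KO replicate 1 at 5.87 above WT replicate 2 at 5.82. Thus the 3 measured enzymes of C4 demethylation comprised 1 that fell, 1 that rose and 1 that did not pass.

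Between squalene synthase and C4 demethylation, the sequence Sqle, Lss and Cyp51 had differences of 0.16, 0.15 and 0.22 on the log2 scale. None of them passed (adjusted p = 0.759, 0.604 and 0.546 by limma). Sqle, the epoxidase that is a rate-limiting point of the late pathway, had 4.89, 4.80 and 4.83 in Cpt2KO livers, against 5.10, 4.27 and 4.66 in WT livers, so that the WT mice spanned the Cpt2KO values on both sides. Its direction turned to -0.042 without WT replicate 2. Lss closes squalene epoxide to lanosterol, and Cyp51 removes the C14 methyl group. In Cyp51 the values were 6.13, 6.17 and 6.31 in Cpt2KO livers, against 6.11, 5.61 and 6.22 in WT livers, and without WT replicate 2 the difference was 0.034. Dhcr7, the terminal reductase, differed by -0.08 (95% interval -0.39 to 0.24), and by -0.11 at its further probe set.

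**Figure D2:**
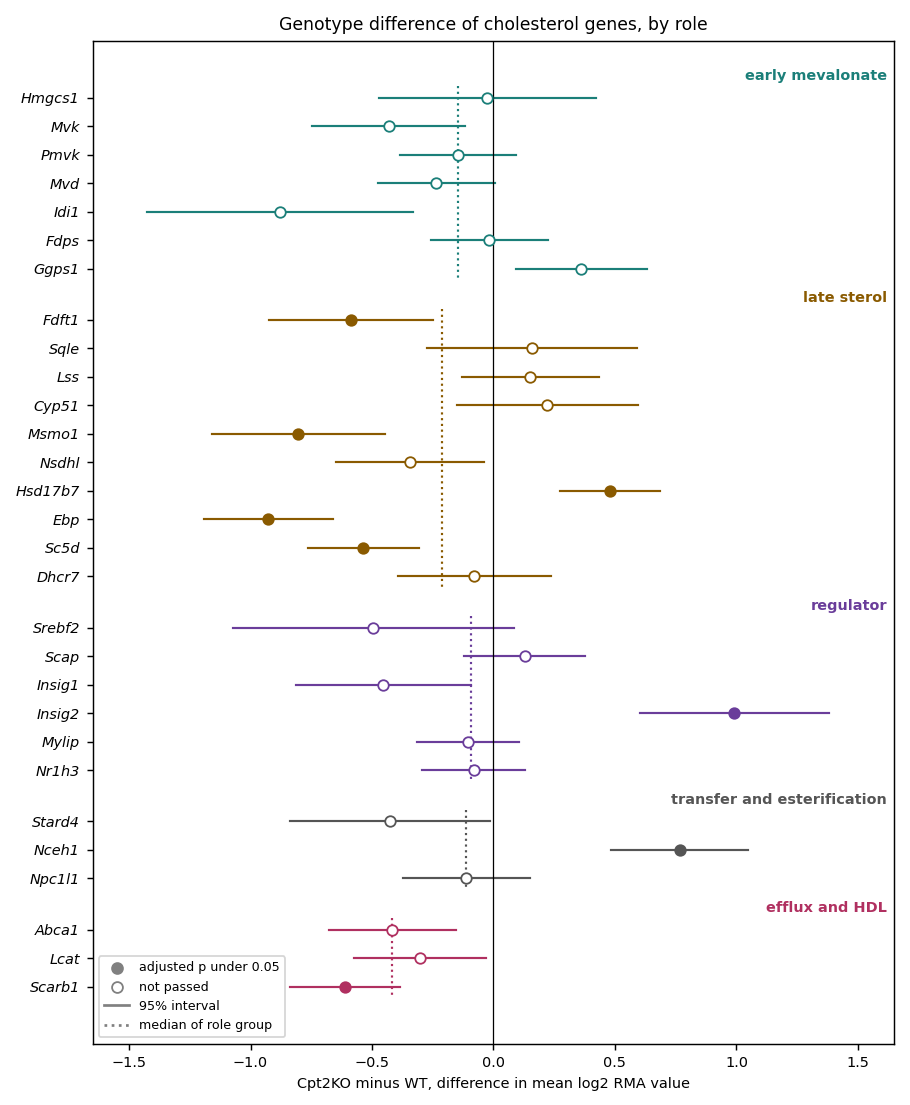
Difference in mean log2 RMA value, Cpt2KO minus WT (x axis), for each measured gene (rows, grouped by role), with 95% intervals from limma, filled points for adjusted p under 0.05 and dotted lines at the median of each role group. Ebp (-0.93) and Insig2 (0.99) lie at the ends, and the intervals of Hmgcs1, Sqle, Lss, Cyp51 and Dhcr7 span 0.

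The WT mice differed among themselves in the synthesis genes. WT replicate 2 had the lowest WT value in 9 of 10 late enzymes, Ebp being the exception, and in 12 of all 17 synthesis enzymes, while it had the lowest WT value in 32.9% of all genes. The median deviation of the late enzymes from their WT mean was -0.21 in WT replicate 2, 0.07 in replicate 1 and 0.10 in replicate 3. Idi1 at 6.30, Sqle at 4.27, Cyp51 at 5.61, Msmo1 at 5.68, the SREBP target Insig1 at 6.35 and the sterol carrier Stard4 at 4.70 all shared this low value. The median deviations of the late enzymes lay closer together in the Cpt2KO mice, at 0.01, -0.06 and 0.07 in replicates 1, 2 and 3. Cpt2KO replicate 2 had the lowest Cpt2KO value in 6 of 10 late enzymes and in 9 of 17 synthesis enzymes, against 27.5% of all genes. In single genes either genotype could have the larger SD, as in Mvk (0.24 in Cpt2KO, 0.11 in WT) and Sqle (0.05 in Cpt2KO, 0.41 in WT). Without WT replicate 2, 7 members were lower and 2 higher, in place of 5 and 3. Idi1 and Stard4 (log2 fold change -0.62, adjusted p = 0.0472 by limma) then joined the lower members, and Hsd17b7 no longer passed. Stard4 was -0.23 without WT replicate 3 (adjusted p = 0.52 by limma). The median of the late enzymes was -0.31 without WT replicate 2. It was -0.16 without WT replicate 1, -0.17 without WT replicate 3 and -0.12 without Cpt2KO replicate 2. No label sets WT replicate 2 apart beyond its listed age of 10 weeks.

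**Figure D3:**
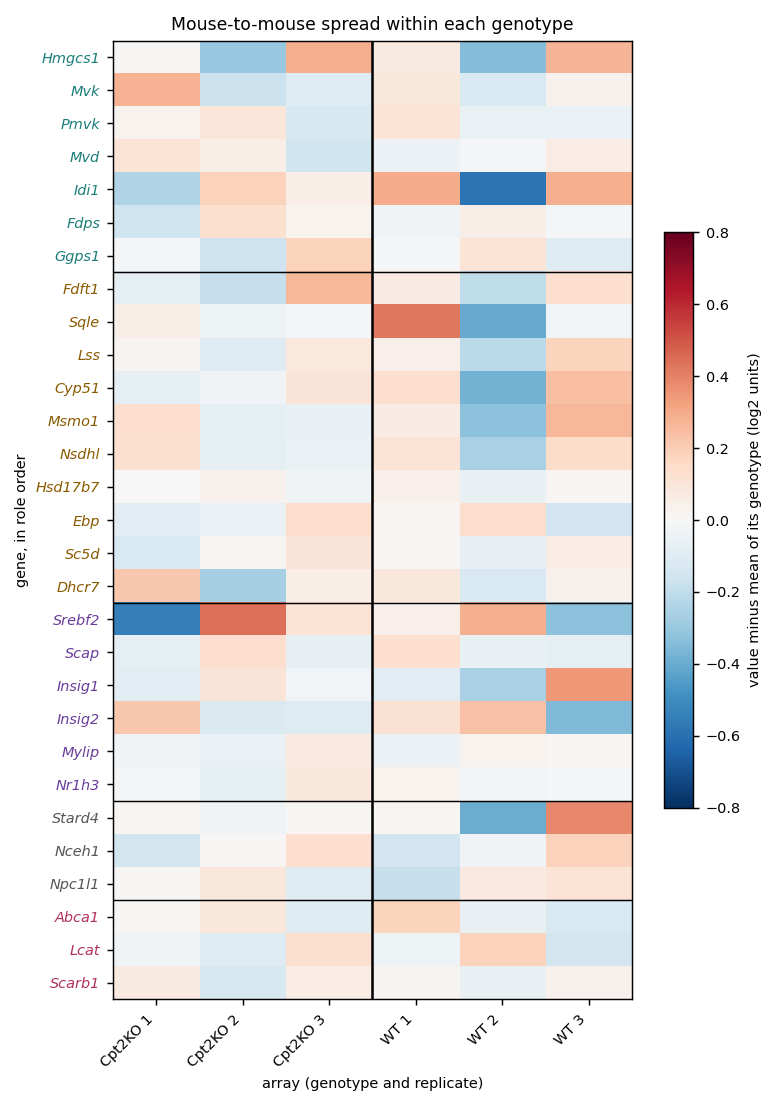
Value of each measured gene (rows, in role order) on each array (columns, Cpt2KO left of WT) minus the mean of that genotype, in log2 units, red above and blue below the mean. WT replicate 2 is blue through Idi1, Fdft1 to Nsdhl, Insig1 and Stard4, and Ebp, Srebf2 and Insig2 do not share this shift.

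Among the regulators, 1 of 6 measured rose and 5 did not pass, where 4.74% of all genes rose. The median log2 fold change of the regulators was -0.09. Insig2, one of the proteins that retain the SCAP complex in the endoplasmic reticulum, rose most of all 29 members. Its mouse gene has alternative promoters, one of which is used in liver, is lowered by insulin and is active in fasting. The values were 9.01, 8.68 and 8.69 in Cpt2KO livers, against 7.92, 8.03 and 7.44 in WT livers. A gap of 0.64 separated the groups, and Insig2 was 1.99-fold higher (log2 fold change 0.99, SE 0.17, adjusted p = 0.00922 by limma). The probe set does not separate transcripts from different promoters. The call held whichever array was removed, with adjusted p from 0.0148 to 0.0309 by limma.

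Insig1, the INSIG gene that is itself an SREBP target, lay in the opposite direction. It had 6.07, 6.26 and 6.13 in Cpt2KO livers, against 6.52, 6.35 and 6.96 in WT livers. The groups were separated by 0.09, and the log2 fold change of -0.45 (95% interval -0.81 to -0.09) did not pass (adjusted p = 0.142 by limma). Srebf2 was the least settled member, since the annotation pairs it with 5 probe sets. At the brightest of them it had 5.08, 6.07 and 5.74 in Cpt2KO livers, against 6.16, 6.41 and 5.80 in WT livers. The groups overlapped, and the log2 fold change was -0.49 (adjusted p = 0.337 by limma). All 5 probe sets differed in the same direction, from -1.07 to -0.26, and in 4 of them the groups did not overlap. With the mean of the 5 in place of the brightest, Srebf2 passed at -0.51 (adjusted p = 0.0296 by limma). At the brightest probe set it was -0.22 without Cpt2KO replicate 1 (adjusted p = 0.674 by limma).

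The remaining regulators lay near 0. Scap, the sterol-sensing escort, differed by 0.13 (95% interval -0.12 to 0.38), Mylip, the ubiquitin ligase also known as IDOL that degrades lipoprotein receptors and is a liver X receptor target, by -0.10 (-0.31 to 0.11), and Nr1h3, which encodes liver X receptor alpha, by -0.08 (-0.29 to 0.13). In Nr1h3 the values were 8.31, 8.25 and 8.42 in Cpt2KO livers, against 8.44, 8.39 and 8.40 in WT livers, which overlap through Cpt2KO replicate 3.

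Of 3 measured genes of sterol transfer, storage and absorption, 1 rose, where 4.74% of all genes rose. Nceh1, a neutral cholesteryl ester hydrolase of the endoplasmic reticulum best known from macrophages, had 5.89, 6.05 and 6.17 in Cpt2KO livers, against 5.12, 5.24 and 5.45 in WT livers. The gap was 0.44, and Nceh1 was 1.70-fold higher (log2 fold change 0.77, SE 0.12, adjusted p = 0.00689 by limma), with adjusted p from 0.0109 to 0.0306 when each array was left out. With listed age as a covariate its log2 fold change was 0.31 (adjusted p = 0.788 by limma). Of 11 measured markers of Kupffer cells and macrophages, 3 rose and 1 fell, where 4.74% of all genes rose and 3.49% fell. Gpnmb (log2 fold change 3.35), Cd68 (2.32) and Cd14 (1.09) rose and Marco (-0.52) fell, while the Kupffer cell gene Clec4f (-0.28) and the macrophage genes Adgre1 (-0.41) and Csf1r (-0.33) did not pass. With the mean of its probe sets Cd14 was 0.53 and did not pass (adjusted p = 0.0643 by limma). Marco held its call without WT replicate 3 and lost it without any other array. The summed log2 level of these 11 markers ran from 66.5 to 69.7 in Cpt2KO livers and from 61.5 to 65.9 in WT livers. Their median log2 fold change was -0.28, with 8 of 11 differences below 0, so the higher sum rested on Gpnmb, Cd68 and Cd14. Their part in the Nceh1 difference was not tested.

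Stard4, a soluble carrier that moves cholesterol between membranes and is an SREBP target, had 4.69, 4.65 and 4.69 in Cpt2KO livers, against 5.11, 4.70 and 5.48 in WT livers. WT replicate 2 lay 0.01 above the highest Cpt2KO value, the SD was 0.02 in Cpt2KO and 0.39 in WT livers, and the log2 fold change was -0.42 (adjusted p = 0.231 by limma). Npc1l1, the sterol absorption protein, which mouse liver makes little of, had 3.26, 3.34 and 3.16 in Cpt2KO livers, against 3.18, 3.44 and 3.47 in WT livers. These overlapping values lay near the median of 2.88 over all probe sets, where RMA understates differences, and the log2 fold change was -0.11 (95% interval -0.37 to 0.15).

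The 3 genes of efflux and high-density lipoprotein (HDL) were all lower in Cpt2KO livers without overlap, and 1 of them passed. Over all genes, 2256 of 20242 were lower without overlap, and 3.49% passed as lower. Scarb1, the HDL receptor that takes up cholesteryl ester from HDL for secretion in bile, had 8.44, 8.24 and 8.43 in Cpt2KO livers, against 9.00, 8.92 and 9.02 in WT livers. It was 1.53-fold lower (log2 fold change -0.61, SE 0.10, adjusted p = 0.00694 by limma) and kept its call whichever array was removed. Abca1, the transporter that loads cholesterol onto apolipoprotein A-I and is the best-known liver X receptor target, had 8.23, 8.32 and 8.13 in Cpt2KO livers, against 8.82, 8.58 and 8.52 in WT livers. The groups were 0.20 apart, with a log2 fold change of -0.42 (95% interval -0.68 to -0.16, adjusted p = 0.0643 by limma). Its 4 probe sets differed by -0.42 to -0.33, and 2 of them showed no overlap. With the dimmer genes removed, which leaves fewer genes to adjust over, the adjusted p was 0.0477 or 0.0322. It was 0.193 with the mean of the 4 probe sets and 0.104 after quantile normalization, and with listed age the log2 fold change was -0.11 (adjusted p = 0.981 by limma). Lcat, the plasma enzyme that esterifies cholesterol on HDL, had 9.19, 9.12 and 9.35 in Cpt2KO livers, against 9.48, 9.71 and 9.37 in WT livers. The gap was 0.03, and the log2 fold change was -0.30 (95% interval -0.57 to -0.03, adjusted p = 0.198 by limma).

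Several members are products of hepatocytes, and the 8 measured hepatocyte markers all had differences below 0. Of these 3 fell, Alb by 0.69, Ttr by 0.51 and Fga by 0.93 on the log2 scale, where 3.49% of all genes fell. The other 5 did not pass, among them Hnf4a at -0.20, Cps1 at -0.14 and Tat at -0.09. Their summed log2 level ran from 79.4 to 80.8 in Cpt2KO livers and from 82.9 to 83.6 in WT livers, and their median log2 fold change was -0.32. The call of Ttr held without Cpt2KO replicate 1 and was lost without any other array (adjusted p from 0.0717 to 0.122 by limma). It was also lost after quantile normalization (adjusted p = 0.0617 by limma) and with values centred on array medians (0.0596). Of 6 endothelial markers 1 rose, Lyve1 (0.92), where 4.74% of all genes rose. Of 6 stellate, 4 cholangiocyte, 5 lymphocyte and 4 neutrophil markers measured, 0 passed by limma, and 1 of them, Sox9 (-0.39), had an unadjusted p under 0.05. The part of these cell types in the differences of Ebp, Msmo1, Fdft1, Sc5d and Scarb1 was not tested.

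By role, the median log2 fold changes were -0.15 in the early enzymes, -0.21 in the late enzymes, -0.09 in the regulators, -0.11 in transfer and esterification and -0.42 in efflux and HDL, with 7, 10, 6, 3 and 3 genes. Members passed in 0, 5, 1, 1 and 1 of them, where 8.24% of all genes passed. Every role group but efflux and HDL held both positive and negative differences. Whether the role groups differ from one another was not tested.

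Other genes that take up, export or convert sterol were compared in the same fit. A list of 51 gene names contained 38 measured genes, of which 5 rose and 4 fell (23.7%). The same test called 8.24% of all genes, dim genes included, 4.74% as higher and 3.49% as lower. The median log2 fold change of the 38 genes was 0.02. With listed age as a covariate 0 of these 9 calls held by limma, with adjusted p from 0.0509 (Cyp7a1) to 0.894 (Vldlr, at 0.22), Cd36 at 0.138 and Aacs at 0.431 with a log2 fold change of 0.54. With all 115050 probe sets fitted and adjusted together by limma, Cyp7a1 (adjusted p = 0.0177) and Cd36 (0.0378) held and the other 7 did not (0.0901 to 0.384). Over all genes, 83 passed with listed age and 189 with all probe sets, in place of 1667. The enzymes that turn cholesterol into bile acids and oxysterols were the group with the most that fell, 3 of 6. Cyp7a1, which starts the classical route, had 5.17, 4.49 and 5.96 in Cpt2KO livers, against 9.33, 9.21 and 9.12 in WT livers. It was 16.1-fold lower (log2 fold change -4.01, SE 0.31, adjusted p = 0.000255 by limma). Cyp27a1, the mitochondrial sterol 27-hydroxylase, was 1.74-fold lower (log2 fold change -0.80, adjusted p = 0.0088 by limma), and Cyp7b1, the oxysterol 7-alpha-hydroxylase of the alternative route, 1.90-fold lower (-0.92, adjusted p = 0.0255 by limma). The Cyp7b1 adjusted p was 0.063 and 0.0877 without Cpt2KO replicate 1 or 3, and 0.0839 and 0.0892 without WT replicate 1 or 2. Cyp8b1, which directs bile acids to cholic acid, had a difference of 0.53 that did not pass (adjusted p = 0.0757 by limma).

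Of 6 measured uptake genes, 3 rose and 1 fell, where 4.74% of all genes rose and 3.49% fell. The scavenger receptor Cd36, which binds oxidised lipoproteins and fatty acids, had 6.63, 6.71 and 7.08 in Cpt2KO livers, against 5.46, 5.15 and 5.06 in WT livers, with no overlap (log2 fold change 1.58, SE 0.15, adjusted p = 0.000692 by limma). Lipa, the lysosomal lipase that frees cholesterol from lipoprotein ester, was 1.89-fold higher (log2 fold change 0.91, adjusted p = 0.00538 by limma). With Nceh1, both measured hydrolases of cholesteryl ester on these lists were thus higher, 1 in the lysosome and 1 outside it. Vldlr, the receptor for very low density lipoprotein, was 1.46-fold higher (log2 fold change 0.55, adjusted p = 0.0191 by limma). Its adjusted p was 0.0521 and 0.0597 without Cpt2KO replicate 1 or 3, and 0.0709 and 0.0684 without WT replicate 1 or 2. Lrp1, the large receptor that clears remnant particles, had 7.64, 7.89 and 8.07 in Cpt2KO livers, against 8.95, 8.76 and 8.85 in WT livers. It was 1.98-fold lower without overlap (log2 fold change -0.99, adjusted p = 0.00255 by limma). The lysosomal cholesterol exporters Npc1 and Npc2 differed by 0.25 and 0.03 and did not pass.

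Of 5 measured export genes 0 passed by limma, 2 had an unadjusted p under 0.05, and all 5 differences were below 0. Among all 20242 genes, 2412 had an unadjusted p under 0.05 without passing. Abcg5, which with Abcg8 forms the pump for biliary cholesterol, had 6.90, 7.47 and 7.58 in Cpt2KO livers, against 7.99, 7.90 and 8.18 in WT livers. The groups did not overlap, and its log2 fold change of -0.70 had an adjusted p of 0.0521 by limma. Its partner Abcg8 differed by -0.25 (adjusted p = 0.529 by limma), with overlap. Abcg1, another liver X receptor target, differed by -0.23 (adjusted p = 0.247 by limma), Apoe by -0.11 and Pltp by -0.07.

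Aacs, a cytosolic acetoacetyl-CoA synthetase that feeds ketone bodies into sterol and fatty acid synthesis, had 6.12, 6.36 and 6.47 in Cpt2KO livers, against 5.26, 5.30 and 5.49 in WT livers. It was 1.96-fold higher without overlap (log2 fold change 0.97, adjusted p = 0.00228 by limma). Among the 11 measured genes of SREBP processing and sterol sensing outside the member list, 0 passed by limma. Of these 11, 3 had an unadjusted p under 0.05, where 2412 of all 20242 genes had one without passing. The largest difference was that of Srebf1 (-0.41, adjusted p = 0.165 by limma). Of 7 genes of other isoprenoid branches 1 rose, Fntb, the beta subunit of protein farnesyltransferase (log2 fold change 0.44, adjusted p = 0.0284 by limma). The share of all genes that rose was 4.74%. Fntb lost its call whichever array was removed, with adjusted p from 0.0503 to 0.11.

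**Figure D4:**
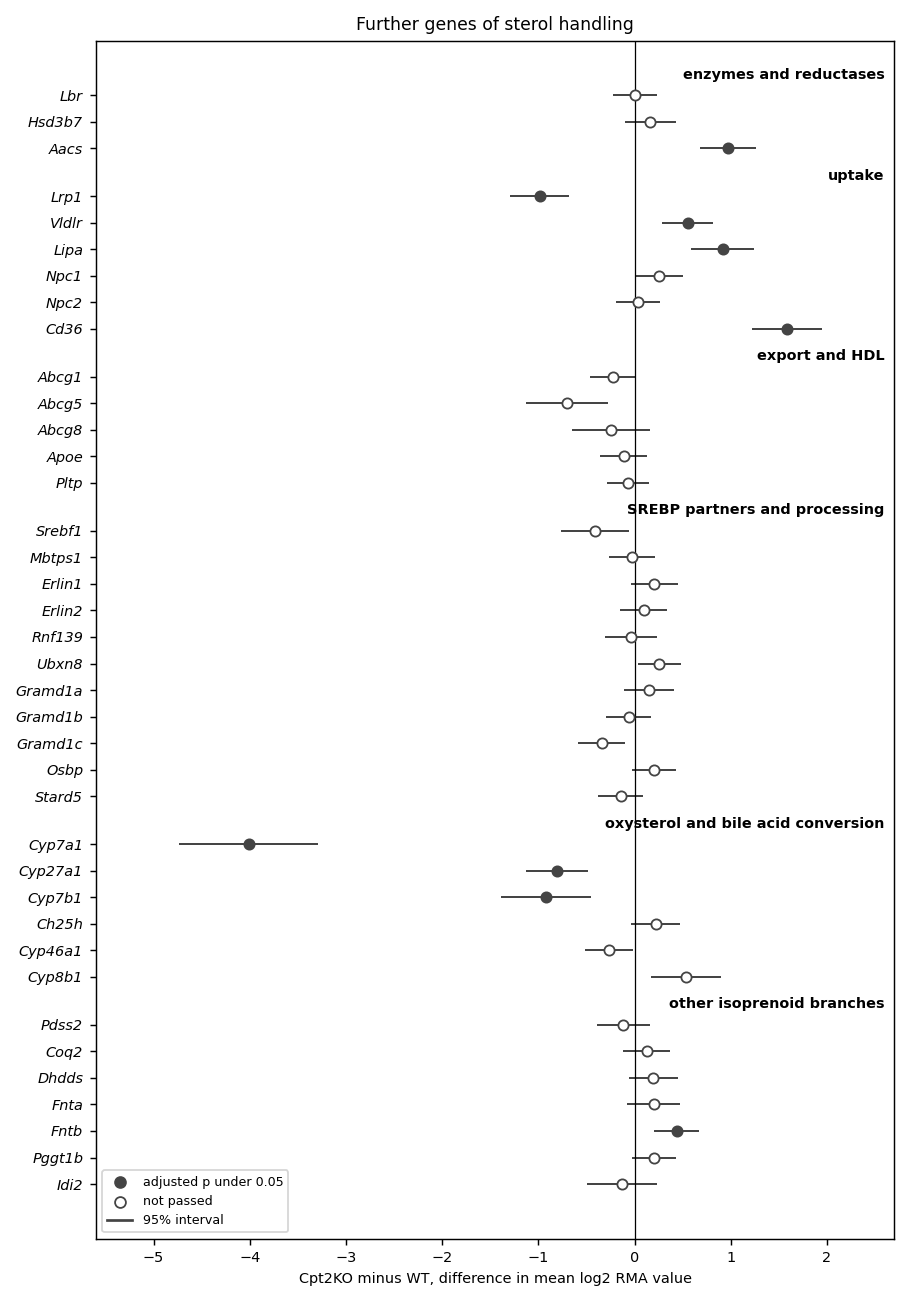
Difference in mean log2 RMA value, Cpt2KO minus WT (x axis), with 95% intervals from limma, for 38 further genes of sterol handling (rows, grouped by function) and filled points for adjusted p under 0.05. Cyp7a1 (-4.01) lies far to the left, Cd36, Aacs and Lipa lie to the right, and all 5 export genes lie left of 0 with open points.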

How the data were processed

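Livers of 3 Cpt2KO and 3 WT mice were profiled on 1 Affymetrix array each. The deposited values are log2 RMA values per probe set, and Partek, RMA and mm9 are named for them, without options, per the submitters' processing notes. Of 115050 probe sets, 25469 named 1 gene, and the brightest stood for a gene with several. Entrez identifiers of all 29 measured members matched RefSeq (GRCm38) symbols. Differences across all 20242 genes were tested by moderated statistics in limma (version 3.58.1, R 4.3.3), two-sided and with Benjamini-Hochberg adjustment over all genes and no filter on dim genes, with 4 residual and 4.23 prior degrees of freedom. The number of arrays, 3 per group, limits the precision. The test was checked on simulated data. An exact two-sided permutation test over 6 arrays cannot go below p = 0.1. Members, role groups, pathway and marker lists and motifs were chosen with earlier results of these data known. All measured members are named, with values on each array for those past adjusted p 0.05, those without overlap and some others chosen after their values were seen, and pathway genes past adjusted p 0.05. Values of other cell-type and pathway genes, and of further probe sets, were added after seeing the data. Alternatives covered the choice of probe set, normalization, filters on dim genes, the variance model, listed age, replicate number and leaving out each array.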

Additional observations from a re-analysis of the deposited data

How the results depend on the processing

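Array number limits these results: with 3 mice per genotype, the smallest difference among members that passed was 0.48 on the log2 scale. The counts of members that were higher and lower, 3 and 5, were 0 and 0 with all 115050 probe sets fitted and adjusted together. They were also 0 and 0 with listed age as a covariate, which within a genotype equals replicate order. They were 1 and 2 with unmoderated statistics. When each array was left out they ran from 2 to 3 and from 2 to 7. The count over all genes, 1667, was 189, 83 and 652 in these 3 settings and ran from 1036 (without WT replicate 2; 1059 without WT replicate 3) to 1305 when each array was left out. Deviations of same-numbered mice from their group means correlated at 0.07, 0.18 and -0.08, and those of differently numbered mice at -0.27 to 0.19. With 3 mice per group, these values cannot tell whether mice of the same replicate number share more than that number. With that number as a replicate block, the counts were 3 higher and 5 lower among members and 1384 over all genes, and no member gained or lost its call. Among further genes Fntb lost its call with that block (adjusted p = 0.0504). When each array was left out Cpt2 ran from -1.03 to -0.90 and kept its call. Cpt2 had a log2 fold change of -0.99 with adjusted p 0.0692 over all probe sets, and -1.24 with adjusted p 0.0753 with listed age.

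When each array was left out, the medians ran from -0.20 to -0.093 in early enzymes, -0.31 to -0.12 in late enzymes, -0.14 to -0.060 in regulators, -0.20 to -0.058 in transfer and esterification and -0.48 to -0.33 in efflux and HDL. With listed age they were -0.11 in early enzymes, -0.11 in late enzymes, -0.18 in regulators, -0.25 in transfer and esterification and -0.34 in efflux and HDL. The transfer median was 0.17 over genes above the median level, since Npc1l1 then drops out.

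Members that did not pass turned sign in some settings, and the cause was not tested. Hmgcs1 was 0.029 after quantile normalization and ran from -0.20 to 0.13 when each array was left out, above 0 without Cpt2KO replicate 2 and without WT replicate 1 or 3. Fdps was 0.023 with the mean of its probe sets and ran from -0.082 to 0.064, above 0 without Cpt2KO replicate 1 and without WT replicate 2. Sqle ran from -0.042 to 0.37, below 0 without WT replicate 2. Dhcr7 was 0.086 with listed age and ran from -0.19 to 0.054, above 0 without Cpt2KO replicate 2, and Pmvk was 0.093 with listed age. No member that passed turned sign in any of the 17 alternative fits. Idi1 also passed with the mean of its probe sets (adjusted p = 0.0483), with either filter on dim genes (0.0447 and 0.0315) and with array weights (0.043), but not in the other settings that kept all arrays (0.0521 to 0.593).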
